A study of Homo sapiens with 8 samples.

Results

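Notch signalling was followed through 10 genes in 2 human neuroblastoma lines, the neuroblastic SH-SY5Y and the epithelial-like SH-EP2. The 10 genes were the receptors NOTCH1, NOTCH2, NOTCH3 and NOTCH4, the ligands JAG1, JAG2, DLL1 and DLL3, and the target genes HES1 and HEY1. Every probe that carried one of these symbols was taken, which gave 10 of the 31426 symbols and 16 of the 47322 probes on the Illumina HumanHT-12 v4 bead arrays. Both lines are subclones of the SK-N-SH tumour line. All cells had received a lentivirus and were kept as stable transductants after puromycin selection. The virus carried either a scrambled shRNA (control) or an shRNA against TRPM7, an ion channel with a kinase domain, and a single TRPM7 shRNA was used on the arrays. Each of the 4 groups (SH-SY5Y control, SH-SY5Y TRPM7 shRNA, SH-EP2 control and SH-EP2 TRPM7 shRNA) had 2 arrays. It is not stated whether the 2 arrays came from separate cultures, so the p-values measure the spread between these arrays, which may be technical.

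Notch receptors are transmembrane proteins that are activated by ligands of the Jagged and Delta-like families on neighbouring cells. Ligand binding lets ADAM proteases and then gamma-secretase cut the receptor, and the freed intracellular domain enters the nucleus, where it joins the DNA-binding protein RBPJ and a Mastermind coactivator. The classic target genes belong to the HES and HEY families, transcriptional repressors that hold neural and neural crest precursors back from neuronal differentiation. DLL3 differs from the other Delta-like proteins in that it mostly stays inside the cell and does not activate receptors on neighbouring cells.

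RBPJ recognises a short element in target promoters, and the promoters of HES1, a member of the list, and of HES4, the HES gene whose signal changed most in the knockdown below, are shown to make that element visible. The letters GTGGGAA were searched on both strands (reverse complement TTCCCAC) in the 250 bases before the annotated start of each gene. RefSeq sequences of GRCh38.p14 were available for 7 of the 10 genes, and 1 of those 7, HES1, held the element, as did 4 of 8 promoters of the other HES and HEY genes and NRARP (HES4, HES5, HEY2 and HEYL). Of all 35116 promoters of that length, 5.43% held it. The HES1 window is chr3:194135898-194136147 on the plus strand and the HES4 window is chr1:1000098-1000347 on the minus strand. Both are written 5′ to 3′ along the gene, with the matched letters in capitals.
HES1: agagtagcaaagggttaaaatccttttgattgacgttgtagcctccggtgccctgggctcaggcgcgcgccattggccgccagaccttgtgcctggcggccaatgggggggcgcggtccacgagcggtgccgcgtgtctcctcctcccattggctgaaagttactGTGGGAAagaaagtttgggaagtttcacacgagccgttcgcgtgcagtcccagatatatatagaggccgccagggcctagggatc
HES4: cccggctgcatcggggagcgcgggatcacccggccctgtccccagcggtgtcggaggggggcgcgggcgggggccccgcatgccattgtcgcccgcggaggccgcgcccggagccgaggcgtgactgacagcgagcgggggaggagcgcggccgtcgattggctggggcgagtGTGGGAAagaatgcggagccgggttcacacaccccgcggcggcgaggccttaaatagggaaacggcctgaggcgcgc
The match lay 85 to 79 bases before the start of HES1 and 77 to 71 bases before the start of HES4. It is a match of letters and says nothing about binding in these cells.

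TRPM7, the target of the shRNA, was measured by 1 probe (ILMN_1667047), and none of the 8 arrays detected it. Detection here means a detection p under 0.05. Its log2 normalized intensities were 2.81 and 3.02 in SH-SY5Y control cells, 2.69 and 2.63 in SH-SY5Y TRPM7 shRNA cells, 2.47 and 2.80 in SH-EP2 control cells, and 2.65 and 2.46 in SH-EP2 TRPM7 shRNA cells. The arrays therefore give no check of the knockdown. Between 40.8% and 44.2% of probes were detected per array, and arrays of 1 group correlated with r between 0.982 and 0.985 across probes. The lines were checked against markers of the noradrenergic and the mesenchymal neuroblastoma states. Of 9 noradrenergic genes, 8 were detected on both arrays of SH-SY5Y control cells (all but TH) and 4 in SH-EP2 control cells. All 8 mesenchymal genes were detected in SH-EP2 control cells and 6 in SH-SY5Y control cells (all but FN1 and PRRX1). Between the control lines 8 of 9 noradrenergic genes were lower in SH-EP2, and of the 8 mesenchymal genes 6 were higher and 2 lower, TWIST1 (log2 difference -1.24, adjusted p = 1.23e-10) and VIM (-0.19, adjusted p = 0.0342). Of all probes 26.2% had an adjusted p under 0.05 in this comparison, 14% as lower and 12.2% as higher in SH-EP2. On bulk arrays, fewer cells that express a gene and less RNA per cell cannot be told apart.

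Of the 16 probes 3 were detected on no array, 2 of them for NOTCH2 (ILMN_1777758 and ILMN_1777845) and 1 for JAG2 (ILMN_1658925), and 6 probes were detected on all 8. Each gene is described by its brightest probe, called its lead probe, and the other probes are given beside it. The lead probes of 6 of the 10 genes were detected on all 8 arrays. JAG2 was missed on 1 SH-SY5Y control array and JAG1 on 1 SH-SY5Y TRPM7 shRNA array. The lead probes of NOTCH4 and DLL1 were detected on neither array of the 2 SH-EP2 groups. Values are log2 intensities after background correction and quantile normalization, and brightness was not compared between probes.

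**Figure D1:**
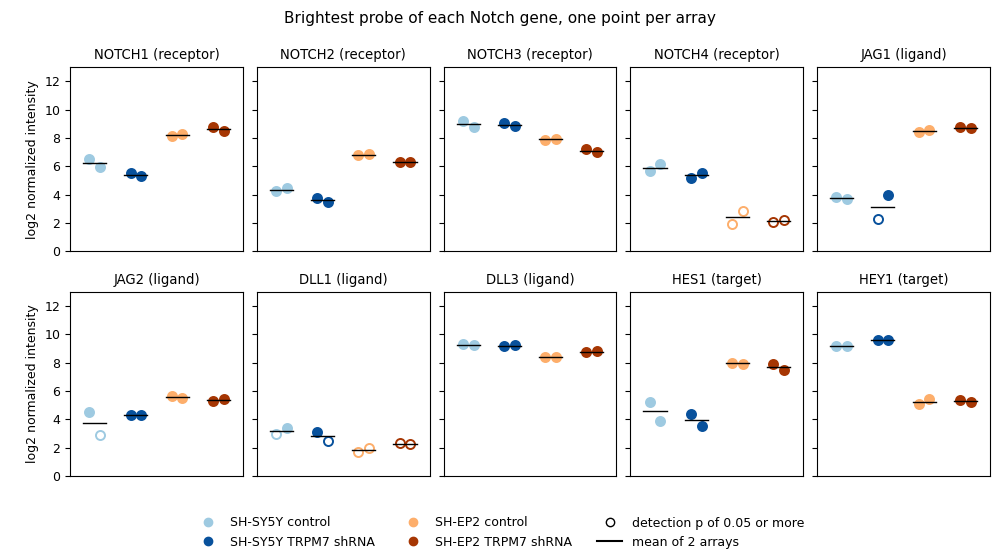
Log2 normalized intensity (y axis) of the lead probe of each gene in the 4 groups, with a point per array and a line at the mean of 2 arrays, where open points are arrays with a detection p of 0.05 or more. NOTCH1, NOTCH2, JAG1, JAG2 and HES1 lay higher on the SH-EP2 arrays, and NOTCH3, NOTCH4, DLL1, DLL3 and HEY1 lay higher on the SH-SY5Y control arrays than on the SH-EP2 control arrays.

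The 2 lines differed in the levels of the Notch genes before any knockdown. In each line, 8 of the 10 lead probes were detected on both control arrays. In SH-EP2 control cells NOTCH1, NOTCH2, JAG1, JAG2 and HES1 were higher than in SH-SY5Y control cells, and NOTCH3, NOTCH4, DLL1, DLL3 and HEY1 were lower. In limma's moderated test, 13 of the 16 probes had an adjusted p under 0.05, 6 of them higher and 7 lower in SH-EP2, and the control arrays of the 2 lines did not overlap for those 13 probes. The lines differed widely, however: 26.2% of all 47322 probes passed the same test, 12.2% as higher and 14% as lower, and the control arrays of 55.3% did not overlap. Of the 23961 probes detected on at least 2 arrays 53.4% passed, and all 13 probes of the list among these passed. The NOTCH4 and DLL1 probes and DLL3 probe ILMN_1753287 met this filter through SH-SY5Y arrays alone. The filter is thus tied to the tested difference, and the 13 of 13 gives no separate support. The median log2 difference was -0.18 over the 16 probes and 0.505 over the 10 lead probes, of which 5 were higher and 5 lower, against -0.02 over all probes. Without background correction the 10 lead probes kept their direction and call, while the log2 differences were smaller in size, for example 1.90 for JAG1 and -0.65 for NOTCH4.

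**Figure D2:**
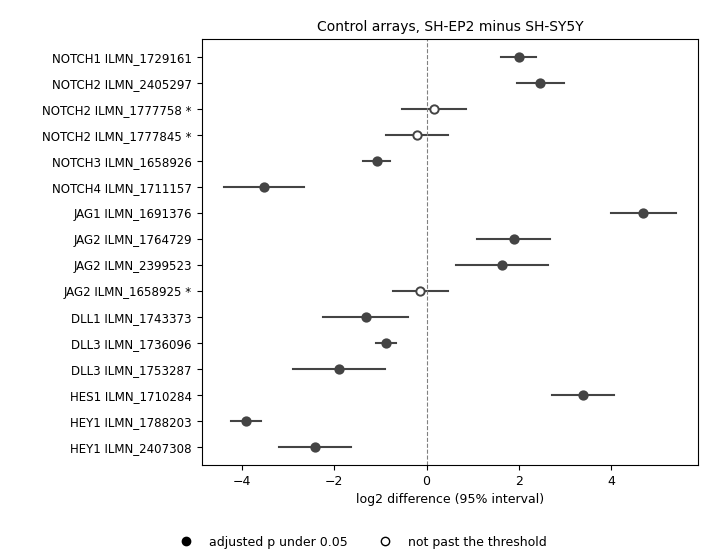
Log2 difference between the control arrays, SH-EP2 minus SH-SY5Y, for each of the 16 probes with its 95% confidence interval (x axis). Filled points had an adjusted p under 0.05, and the 3 probes marked with an asterisk were detected on no array. The 6 filled points right of 0 belong to NOTCH1, NOTCH2, JAG1, JAG2 and HES1 and the 7 left of 0 to NOTCH3, NOTCH4, DLL1, DLL3 and HEY1.

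Among the receptors, NOTCH1, the broadly expressed receptor with both activating and tumour-suppressing roles in cancer, read 6.51 and 5.95 in SH-SY5Y control cells against 8.13 and 8.31 in SH-EP2 control cells. That is a 3.99-fold difference (log2 1.99, SE 0.185, adjusted p = 2.96e-08). The lead probe of NOTCH2, a close paralog of NOTCH1, read 4.28 and 4.44 in SH-SY5Y control cells and 6.78 and 6.87 in SH-EP2 control cells. The difference was 5.52-fold (log2 2.46, SE 0.245, adjusted p = 8.01e-08). The 2 other NOTCH2 probes stayed undetected in both lines, and the mean over all 3 probes of the gene did not pass the test (log2 difference 0.81, adjusted p = 0.114). The genome also holds near-identical NOTCH2NL copies, and because the files give no probe sequences it cannot be said whether this probe reads them as well.

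NOTCH3, a receptor known for its part in vascular smooth muscle, ran the other way. It read 9.17 and 8.79 in SH-SY5Y control cells and 7.86 and 7.94 in SH-EP2 control cells, a 2.11-fold lower level in SH-EP2 (log2 difference -1.08, SE 0.14, adjusted p = 3.18e-06). NOTCH4, best known from endothelial cells, read 5.69 and 6.14 in SH-SY5Y control cells, both arrays detected. In SH-EP2 control cells it read 1.92 and 2.86, neither array detected, so that NOTCH4 was at least 6.45-fold lower in SH-EP2 (adjusted p = 8.05e-07). Here and below, such a bound sets the bright group against the lowest signal detected on the arrays of the undetected group. NOTCH3 and NOTCH4 were thus the receptors that were higher in SH-SY5Y, and NOTCH1 and NOTCH2 those that were higher in SH-EP2.

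Among the ligands the widest gap belonged to JAG1, a Jagged ligand that activates several Notch receptors. JAG1 read 3.87 and 3.70 in SH-SY5Y control cells, close to the background, and 8.40 and 8.57 in SH-EP2 control cells. The difference was 26-fold (log2 4.70, SE 0.335, adjusted p = 5.69e-10). The second Jagged gene, JAG2, read 4.50 and 2.93 in SH-SY5Y control cells, the second array undetected, and 5.66 and 5.54 in SH-EP2 control cells. It was 3.7-fold higher in SH-EP2 (log2 difference 1.89, SE 0.382, adjusted p = 0.000579), a size that turned on the SH-SY5Y control arrays, with a log2 difference of 2.66 without replicate 1 and 1.10 without replicate 2 (adjusted p = 7.65e-06 and 0.015). A further JAG2 probe, ILMN_2399523, was undetected in SH-SY5Y control cells and at least 2.42-fold higher in SH-EP2 (adjusted p = 0.0127).

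The Delta-like ligands were lower in SH-EP2. DLL3, whose main role is inside the cell, read 9.30 and 9.26 in SH-SY5Y control cells and 8.42 and 8.40 in SH-EP2 control cells, which is 1.84-fold lower in SH-EP2 (log2 difference -0.88, SE 0.103, adjusted p = 8.91e-07). Its second probe, ILMN_1753287, was detected on the 4 SH-SY5Y arrays and on no SH-EP2 array, and was at least 2.17-fold lower in SH-EP2 control cells (adjusted p = 0.00431). DLL1, an activating Delta-like ligand, lay at the edge of detection. It read 2.95 and 3.37 in SH-SY5Y control cells, with only the second array detected, and 1.69 and 1.98 in SH-EP2 control cells, with neither detected. The log2 difference was -1.32 (SE 0.441, adjusted p = 0.03), and a fold cannot be given. The DLL1 call was lost without SH-SY5Y control replicate 2 (adjusted p = 0.147) and without either SH-EP2 control array (adjusted p = 0.171 and 0.073).

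The 2 target genes were opposite between the lines. HES1, a repressor of proneural genes, read 5.21 and 3.91 in SH-SY5Y control cells and 8.01 and 7.90 in SH-EP2 control cells, where it was 10.5-fold higher (log2 difference 3.39, SE 0.322, adjusted p = 4.22e-08, and 2.74 to 4.05 when an array was left out). HEY1, the related HEY repressor, read 9.17 and 9.15 in SH-SY5Y control cells and 5.09 and 5.41 in SH-EP2 control cells, where it was 15-fold lower (log2 difference -3.91, SE 0.152, adjusted p = 3.88e-14). The second HEY1 probe, ILMN_2407308, was 5.34-fold lower in SH-EP2 (adjusted p = 2.99e-05).

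The same split held with the knockdown in place. In the comparison of the 2 TRPM7 shRNA groups, 11 of 16 probes passed (5 higher and 6 lower in SH-EP2; 26.1% of all probes passed, 12.2% as higher and 13.9% as lower), and among the lead probes only DLL1 did not (log2 difference -0.51, adjusted p = 0.507). Over the 4 groups, JAG1, JAG2, HES1 and NOTCH2 followed the order SH-EP2 above SH-SY5Y with no step inside a line that passed the test. HEY1, NOTCH4 and DLL3 followed the reverse order, again with no such step inside a line. Along the order of the 4 group means, neighbours of the same line differed only for NOTCH1, between the 2 SH-SY5Y groups, and for NOTCH3, between the 2 SH-EP2 groups.

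In SH-SY5Y cells, NOTCH1 was lower with the TRPM7 shRNA. It read 6.51 and 5.95 on the control arrays and 5.53 and 5.29 on the TRPM7 shRNA arrays, and the groups did not overlap after normalization. The difference was 1.76-fold (log2 -0.82, SE 0.185, adjusted p = 0.02). Before background correction and normalization the raw intensities were 211.2 and 152.9 against 165.9 and 163.7, which do overlap, while the fitted background was 103.7 and 98.3 on the control arrays and 110.0 and 110.3 on the TRPM7 shRNA arrays. The call was lost when control replicate 1 was left out (log2 -0.54, adjusted p = 0.207), when TRPM7 shRNA replicate 2 was (log2 -0.70, adjusted p = 0.166), and under 6 of 10 other settings, which gave log2 differences between -0.82 and -0.28.

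NOTCH1 was the only one of the 16 probes to pass in SH-SY5Y cells, where 2.12% of all probes passed (1.3% as lower), as did 5.2% of those detected on at least 2 arrays, and 3 of the 16 had an unadjusted p under 0.05. The groups did not overlap for 6 of 16 probes, against 39.1% of all probes. The median log2 difference was -0.07 over the 16 probes, -0.46 over the 10 lead probes and 0.00 over all probes. Some of the lead probes lay near the detection limit in this line. Of all probes 386 passed as higher and 617 as lower, and with median scaling in place of quantile normalization 553 passed as higher and 284 as lower, so that the balance of directions in this line depends on the scaling.

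The other SH-SY5Y receptors and ligands did not pass. NOTCH2 read 4.28 and 4.44 on control arrays and 3.73 and 3.49 on TRPM7 shRNA arrays (log2 difference -0.75, adjusted p = 0.158). Its raw intensities, 131.6 and 120.9 against 128.5 and 126.9, overlapped, and 11 other settings gave log2 differences between -0.80 and -0.10. NOTCH3 read 9.17 and 8.79 against 9.03 and 8.84, with overlapping groups and a 95% confidence interval of the log2 difference from -0.34 to 0.25. NOTCH4 read 5.69 and 6.14 against 5.17 and 5.55 (log2 difference -0.55, adjusted p = 0.695), while its raw intensities, 168.1 and 160.5 against 154.9 and 173.0, overlapped. DLL3 differed by -0.08 (95% interval -0.30 to 0.13).

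For JAG1, JAG2 and HES1 the SH-SY5Y values turned on single arrays. JAG1 read 3.87 and 3.70 on control arrays and 2.29 and 3.96 on TRPM7 shRNA arrays, and its log2 difference of -0.66 (adjusted p = 0.479) became -1.48 (adjusted p = 0.00117) without TRPM7 shRNA replicate 2 and 0.17 (adjusted p = 0.895) without replicate 1. JAG2 read 4.50 and 2.93 against 4.30 and 4.29, and its log2 difference of 0.58 (adjusted p = 0.641) became 1.35 (adjusted p = 0.048) without control replicate 1 and -0.21 (adjusted p = 0.905) without control replicate 2. HES1 read 5.21 and 3.91 against 4.36 and 3.55, and its log2 difference of -0.60 (adjusted p = 0.519) became -1.25 (adjusted p = 0.0386) without control replicate 2 and 0.048 (adjusted p = 0.977) without control replicate 1. These 3 genes lay near the detection limit in this line. No direction can be read from them.

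HEY1, the target gene that was higher in SH-SY5Y, had replicates that agreed closely in SH-SY5Y cells. It read 9.17 and 9.15 on control arrays and 9.57 and 9.58 on TRPM7 shRNA arrays, a log2 difference of 0.42 (SE 0.152, adjusted p = 0.239) that did not pass. It passed with normexp background correction (0.38, adjusted p = 0.0165) and without background correction (0.35, adjusted p = 0.00642). Its second probe read 5.19 and 5.48 against 6.02 and 5.63 (log2 difference 0.49, adjusted p = 0.707).

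In SH-EP2 cells the probe that passed was that of NOTCH3. It read 7.86 and 7.94 on control arrays and 7.22 and 7.0 on TRPM7 shRNA arrays, with no overlap. NOTCH3 fell 1.72-fold (log2 difference -0.79, SE 0.14, adjusted p = 0.00209). The raw intensities, 353.5 and 337.8 against 265.3 and 241.5, did not overlap either. Without TRPM7 shRNA replicate 2 the log2 difference was -0.67 (adjusted p = 0.0558). Variance estimates without the intensity trend or without sharing across probes also ended the call, with adjusted p = 0.239 and 0.24.

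NOTCH3 was the only one of the 16 probes to pass in SH-EP2 cells, where 3.03% of all probes passed (1.55% as lower), as did 7.41% of those detected on at least 2 arrays, and 5 of the 16 had an unadjusted p under 0.05. The groups did not overlap for 10 of the 16 probes, against 42.9% of all probes. The median log2 difference was 0.01 over both the 16 probes and all probes, and -0.11 over the 10 lead probes.

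**Figure D3:**
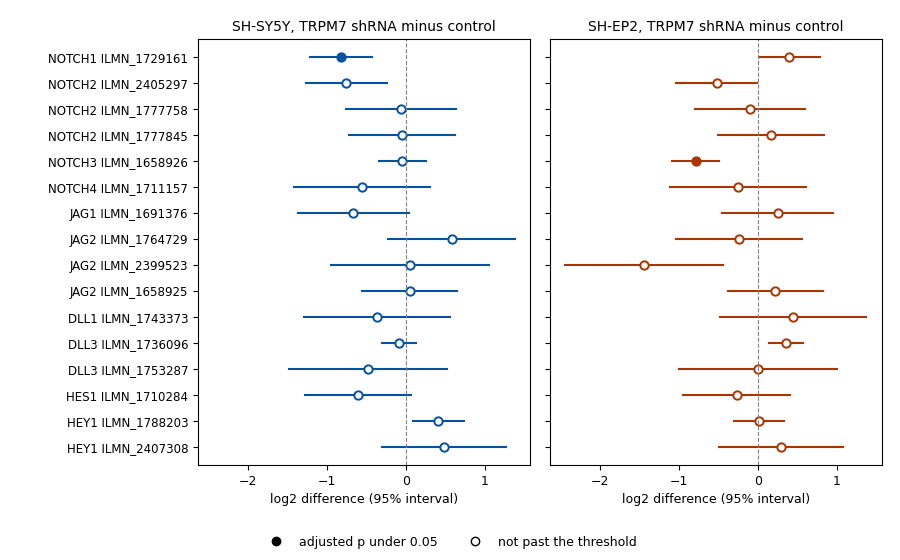
Log2 difference of TRPM7 shRNA minus control (x axis, with 95% confidence intervals) for each of the 16 probes in SH-SY5Y cells (left) and SH-EP2 cells (right). Filled points had an adjusted p under 0.05: NOTCH1 at -0.82 in SH-SY5Y and NOTCH3 at -0.79 in SH-EP2.

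DLL3 came next in SH-EP2 cells. It read 8.42 and 8.40 on control arrays and 8.75 and 8.79 on TRPM7 shRNA arrays (log2 difference 0.36, SE 0.103, adjusted p = 0.0701). It passed under 5 of 10 other settings, with adjusted p-values from 0.0213 to 0.0398 in those 5, and the second DLL3 probe was undetected in this line. NOTCH1 read 8.13 and 8.31 against 8.76 and 8.49, higher on both TRPM7 shRNA arrays but short of the threshold (log2 difference 0.40, adjusted p = 0.373). NOTCH2 read 6.78 and 6.87 against 6.32 and 6.30 (log2 difference -0.51, adjusted p = 0.394).

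JAG1 and HES1, the ligand and target that marked SH-EP2 cells, did not pass there. JAG1 read 8.40 and 8.57 on control arrays and 8.76 and 8.72 on TRPM7 shRNA arrays (log2 difference 0.25, 95% interval -0.45 to 0.95). HES1 read 8.01 and 7.90 against 7.89 and 7.49 (log2 difference -0.26, 95% interval -0.94 to 0.41). The HES1 interval leaves room for a fall of the size seen for NOTCH3. The JAG1 interval leaves room for a rise of that size but not for such a fall. HEY1 differed by 0.02 with overlapping groups (95% interval -0.30 to 0.34). The lead JAG2 probe read 5.66 and 5.54 against 5.32 and 5.40 (log2 difference -0.24, adjusted p = 0.889), while JAG2 probe ILMN_2399523 read 4.67 and 4.19 against 2.62 and 3.37 (log2 difference -1.44, adjusted p = 0.139).

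Whether the shRNA acted differently in the 2 lines was tested directly, as the SH-EP2 log2 difference minus the SH-SY5Y log2 difference. For NOTCH1 it was 1.22 (SE 0.262, adjusted p = 0.0185), lower with the shRNA on both SH-SY5Y arrays and higher on both SH-EP2 arrays. NOTCH1 was the only one of 16 probes to pass, where 1.42% of all probes did (0.799% as higher), and 3.44% of those detected on at least 2 arrays. The NOTCH1 difference kept its sign but not its call under 3 of 8 other settings (adjusted p from 0.15 to 0.423) and when any of 5 arrays was left out: SH-SY5Y control replicate 1 (adjusted p = 0.0798), SH-SY5Y TRPM7 shRNA replicate 2 (0.0727), SH-EP2 control replicate 1 (0.12), SH-EP2 control replicate 2 (0.0583) and SH-EP2 TRPM7 shRNA replicate 1 (0.148). For NOTCH3 the difference between the lines was -0.74 (SE 0.198, adjusted p = 0.0758), which did not pass. It passed under 2 of 8 other settings, normexp background correction (adjusted p = 0.0468) and the restriction to probes detected on at least 2 arrays (0.0435), and without SH-SY5Y control replicate 1 (0.0223).

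**Figure D4:**
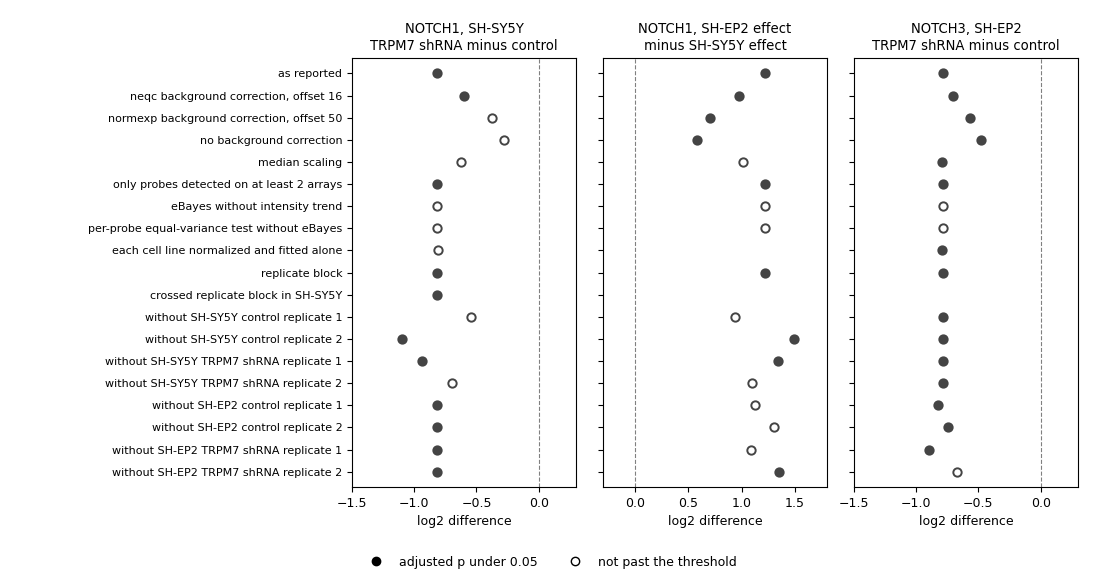
Log2 differences (x axis) of NOTCH1 in SH-SY5Y cells, of NOTCH1 between the lines and of NOTCH3 in SH-EP2 cells, for the analysis as reported and for each alternative setting (rows), with filled points for an adjusted p under 0.05. The sign stayed the same in every row, while the call of NOTCH1 was lost in many rows and that of NOTCH3 in 3.

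The 48 other Notch pathway genes, listed by role, were all on the array, and 11 of their lead probes were detected on no array. In SH-SY5Y cells 2 rose with the TRPM7 shRNA (FBXW7 and KAT2B) and 2 fell (LFNG and HES6). In SH-EP2 cells 2 rose (DNER and KAT2B) and 3 fell (LFNG, HES4 and HES6). The background was 2.12% of all probes and 5.2% of those detected on at least 2 arrays in SH-SY5Y, and 3.03% and 7.41% in SH-EP2. LFNG, HES6 and KAT2B thus passed in the same direction in both lines. The share of all probes that did so was not counted, so this overlap cannot be set against a background. The group means of the 2 comparisons share no arrays, but both rest on the same normalization and the same estimate of the spread. None of the 3 differed between the lines by the test of the difference (adjusted p = 0.726, 0.715 and 0.48), which does not show that the effects were equal. The median log2 difference over the 48 genes was 0.04 in SH-SY5Y and 0.05 in SH-EP2, against 0.00 and 0.01 over all probes.

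**Figure D5:**
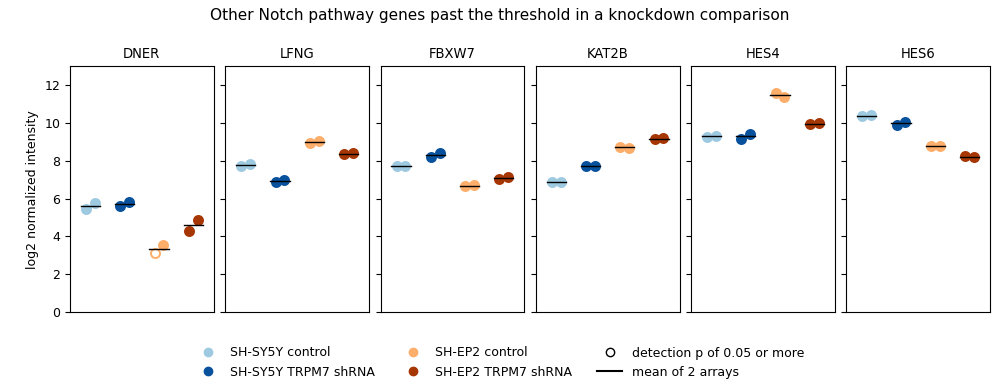
Log2 normalized intensity (y axis) of the 6 other pathway genes that passed in a knockdown comparison, with a point per array, a line at the mean of 2 arrays, and an open point where the detection p was 0.05 or more. HES4 fell on the SH-EP2 arrays alone, from 11.60 and 11.38 to 9.93 and 10.00, and LFNG and HES6 fell while KAT2B rose in both lines.

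HES4, a HES family repressor, had the strongest response in the pathway. It read 11.60 and 11.38 in SH-EP2 control cells and 9.93 and 10.00 in SH-EP2 TRPM7 shRNA cells, a log2 difference of -1.52 (SE 0.101, adjusted p = 1.65e-08). In SH-SY5Y cells it read 9.27 and 9.31 against 9.17 and 9.41, with a log2 difference of 0.00 (95% interval -0.21 to 0.21). The difference between the lines was -1.53 (SE 0.144, adjusted p = 2.78e-06). The SH-EP2 call was lost only with variances estimated probe by probe (adjusted p = 0.0607), and the difference between the lines was lost there and without the intensity trend (adjusted p = 0.138 and 0.144).

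LFNG, a Fringe glycosyltransferase that adds sugars to Notch receptors and so sets which ligands they answer, read 7.72 and 7.83 on SH-SY5Y control arrays and 6.88 and 6.99 on SH-SY5Y TRPM7 shRNA arrays (log2 difference -0.85, SE 0.125, adjusted p = 0.000382). In SH-EP2 it read 8.94 and 9.04 against 8.35 and 8.40 (log2 difference -0.62, SE 0.125, adjusted p = 0.0066). No array overlapped in either line. The SH-EP2 call was lost without control replicate 2 or either TRPM7 shRNA array (adjusted p = 0.116, 0.0973 and 0.0604). The 2 further LFNG probes lay near the background and did not pass in either line.

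KAT2B, an acetyltransferase that works with the Notch nuclear complex, read 6.86 and 6.90 on SH-SY5Y control arrays and 7.70 and 7.70 on TRPM7 shRNA arrays (log2 difference 0.82, adjusted p = 0.00031). In SH-EP2 it read 8.72 and 8.70 against 9.16 and 9.20 (log2 difference 0.47, adjusted p = 0.0352), a call that was lost when any SH-EP2 array was left out (adjusted p from 0.171 to 0.264), with median scaling (0.114) and with a block for the replicate numbers (0.0825). HES6, a HES protein that opposes HES1 and favours neuronal differentiation, read 10.36 and 10.42 against 9.92 and 10.05 in SH-SY5Y (log2 difference -0.40, adjusted p = 0.0344) and 8.79 and 8.80 against 8.23 and 8.19 in SH-EP2 (log2 difference -0.59, adjusted p = 0.00115). The SH-SY5Y call of HES6 was lost when any of the 8 arrays was left out (adjusted p from 0.0519 to 0.259), with median scaling (0.317) and with the replicate block (0.0785).

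FBXW7, the ubiquitin ligase subunit that marks the Notch intracellular domain for destruction, rose in SH-SY5Y from 7.72 and 7.73 to 8.21 and 8.40 (log2 difference 0.58, adjusted p = 0.0339). Its call was lost without any SH-SY5Y array or either SH-EP2 TRPM7 shRNA array (adjusted p from 0.052 to 0.264) and with the replicate block (adjusted p = 0.0697). In SH-EP2 it read 6.65 and 6.74 against 7.04 and 7.12 and did not pass (log2 difference 0.39, adjusted p = 0.192). Another FBXW7 probe, ILMN_1668634, was detected on both arrays of each SH-SY5Y group. It did not pass in SH-SY5Y (log2 difference 0.39, 95% interval -0.30 to 1.08, adjusted p = 0.753). DNER, a neuronal transmembrane protein that can act as a Notch ligand, read 3.14 and 3.55 on SH-EP2 control arrays, only the second detected, and 4.31 and 4.87 on TRPM7 shRNA arrays (log2 difference 1.24, adjusted p = 0.0284). The DNER call was lost without SH-EP2 control replicate 1 (adjusted p = 0.2), control replicate 2 (0.0507) or TRPM7 shRNA replicate 2 (0.325), and under 6 other settings. Without the intensity trend, HES4 in SH-EP2 kept its call and the other pathway calls of both lines were lost. With variances estimated probe by probe, KAT2B kept its calls in both lines and the others were lost. RBPJ itself, the DNA-binding partner of all 4 receptors, did not pass in either line (log2 difference 0.01 in SH-SY5Y and -0.54 in SH-EP2, adjusted p = 0.993 and 0.0831).

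Between the control lines 27 of the 48 pathway genes passed, 14 higher and 13 lower in SH-EP2, where 26.2% of all probes and 53.4% of those detected on at least 2 arrays passed. The gamma-secretase subunit APH1B was 2.79-fold higher in SH-EP2 (adjusted p = 8.2e-07). DLK1, a Delta-like protein that lacks the receptor-activating domain, read 12.34 and 12.50 in SH-SY5Y control cells and was undetected in SH-EP2, where it was at least 588-fold lower (adjusted p = 2.99e-20). HES4, LFNG and KAT2B were 4.58-, 2.31- and 3.56-fold higher in SH-EP2 (adjusted p = 6.33e-13, 1.42e-07 and 1.41e-10). The Deltex ubiquitin ligase DTX2 was 1.99-fold higher (adjusted p = 8.61e-07). HES6 and the nuclear coregulator SNW1 were 3.01- and 2.26-fold lower (adjusted p = 6.62e-11 and 1.44e-06). POFUT1, which adds the fucose that Fringe enzymes extend, had probes that disagreed: the lead probe was 2.24-fold lower in SH-EP2 (adjusted p = 3.97e-09), while probe ILMN_1776076 was higher by a log2 of 0.99 (adjusted p = 2.05e-06).

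Markers of the 2 cell states also changed in the knockdown comparisons. In SH-SY5Y cells, where 2.12% of all probes passed, 2 of 9 noradrenergic genes (ISL1 and DBH) and 2 of 8 mesenchymal genes (VIM and SNAI2) fell and 0 rose. In SH-EP2 cells, where 3.03% of all probes passed, 1 of 9 noradrenergic genes (GATA2) fell, and of the 8 mesenchymal genes 1 rose (CD44) and 3 fell (COL1A1, SNAI2 and TWIST1). The summed log2 level of the noradrenergic list was 88.2 and 88.8 on SH-SY5Y control arrays and 86.1 and 84.8 on SH-SY5Y TRPM7 shRNA arrays, and 32.5 and 32.2 against 33.0 and 31.0 in SH-EP2. That of the mesenchymal list was 56.3 and 55.0 against 52.4 and 53.5 in SH-SY5Y, and 82.1 and 81.8 against 80.6 and 81.2 in SH-EP2. Their part in the results above was not tested.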

How the data were processed

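Total RNA of 8 samples was hybridised to Illumina HumanHT-12 v4 arrays, 2 per group. In GenomeStudio 2011.1 (version per the submitters' processing notes) the authors read out 47322 probes, each with a bead intensity and a detection p-value. The deposited intensities are on a linear scale and not normalized, and the deposited detection p-values were used only to call a probe detected (p under 0.05). Of the probes, 44052 carry a gene symbol. Median raw intensity per array was 104.7 to 119.9, close to the modelled background of 98.3 to 111.1, so that probes near it carry little information. The number of arrays limits the precision.

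Groups follow the labelled cell line and shRNA. Intensities were corrected with the RMA background model, after the study's methods, then log2 transformed and quantile normalized across all 8 arrays, without a filter on dim probes. Group means were fitted with limma 3.58.1 in R 4.3.3 (lmFit, then eBayes with an intensity trend), with two-sided tests and Benjamini-Hochberg adjustment over all 47322 probes. The contrasts were TRPM7 shRNA minus control in each line, the difference of these 2, and SH-EP2 minus SH-SY5Y. The procedure was tested on simulated data. Where a group was undetected on both arrays, a fold is given as a bound or not at all.

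The 10 genes, the lists and the settings were chosen with earlier results of these data known. Genes named are every member probe, TRPM7, each of the 48 listed pathway genes whose lead probe passed an adjusted p of 0.05 in a knockdown comparison while both arrays of its brighter group detected it, and the 10 with the smallest adjusted p between the control lines, 1 of which is not reported here. RBPJ and the marker genes are outside that rule and were named after their values were seen. Same-numbered arrays were not paired, because the study's methods name no pairing. They also did not deviate together (r of their differences -0.11 in SH-SY5Y and -0.0044 in SH-EP2 over 14577 probes detected on all arrays). Alternatives were other background corrections (neqc, normexp, none), median scaling, a filter on dim probes, 2 other variance estimates, each line alone, the mean over a gene's probes, a replicate block and leaving out each array. Promoters were read from a RefSeq table of GRCh38.p14.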

Additional observations from a re-analysis of the deposited data

Results flagged for a closer look

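In limma's interaction test between the lines, the TRPM7 shRNA effect passed for 1 of 16 member probes and 1 of 48 pathway genes. Of all probes 1.42% passed, and of those detected on at least 2 arrays 3.44%. For both genes, NOTCH1 and HES4, the call depended on the variance estimate. For NOTCH1 the SH-EP2 log2 difference minus the SH-SY5Y log2 difference was 1.22 (SE 0.262, adjusted p = 0.0185), from a log2 difference of 0.40 (SH-EP2) and -0.82 (SH-SY5Y). For HES4 it was -1.53 (SE 0.144, adjusted p = 2.78e-06), from a log2 difference of -1.52 (SH-EP2) and 0.00 (SH-SY5Y). Leaving out each array in turn gave 0.94 to 1.49 for NOTCH1, and the call was lost in 5 of those 8 fits and under 3 of 8 other settings. HES4 passed in each of the 8 fits that left out an array, and its call was lost without the intensity trend (adjusted p = 0.144) and with variances estimated probe by probe (adjusted p = 0.138).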

How the results depend on the processing

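With 2 arrays per group, the knockdown counts of the 10 genes are small and depend on how the variance is estimated. Of 686 single-gene values over all alternatives, 628 kept their direction and side of the threshold, 25 fell short of it, 15 came to pass it and 18 changed sign, none of those 18 having passed as reported. Without the intensity trend, and with variances estimated probe by probe, 0 of 16 member probes passed in SH-SY5Y, in SH-EP2 and for the difference between the lines. The pathway genes that passed were 0 and 1 in SH-SY5Y, 1 and 1 in SH-EP2 and 0 and 0 for the difference. Of all probes, these 2 settings passed 0.135% and 0.106% in SH-SY5Y (2.12% as reported) and 0.216% and 0.218% in SH-EP2 (3.03% as reported). For the difference they passed 0.0486% and 0.0317% (1.42% as reported). Fewer member probes also passed in SH-SY5Y with median scaling or the line alone (0 and 0) and for the difference with median scaling (0). Of all probes 1.77% and 1.8% passed there in SH-SY5Y and 1.04% for the difference. In SH-EP2 2 passed with neqc, normexp, no background correction or the filter on dim probes, and 3 with the line alone. In that order, 3.56%, 4.22%, 4.26%, 7.41% and 5.47% of all probes tested passed. For the difference 2 passed with normexp or that filter, where 2.44% and 3.44% of all probes tested did. Leaving out each array gave 1 to 2 member probes in SH-SY5Y, 0 to 1 in SH-EP2 and 0 to 1 for the difference, and 2 to 3 and 2 to 5 pathway genes in SH-SY5Y and SH-EP2. Between the control lines the alternatives gave 9 to 13 member probes and 22 to 27 pathway genes. Among these settings, the mean over a gene's probes counts the 10 genes in place of the 16 probes, so its count is not out of 16. The cause of these shifts was not tested.

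The replicate number as a block left 1 member probe in SH-SY5Y, 1 in SH-EP2 and 11 between the control lines. It left 2 pathway genes in SH-SY5Y (FBXW7 and HES6 lost) and 4 in SH-EP2 (KAT2B lost). Of all probes the block left 1.7% in SH-SY5Y, 2.41% in SH-EP2 and 21.8% between the control lines. Among the lead probes of the 10 genes it ended the call of DLL1 between the control lines (adjusted p = 0.0935) and no other. With the numbers crossed in SH-SY5Y, a pairing added after seeing the data, 1 member probe and 4 pathway genes passed, where 3.01% of all probes did. The mean over a gene's probes left 2 pathway genes in SH-SY5Y.

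In SH-SY5Y, NOTCH3 turned to 0.092 and DLL3 to 0.066 with median scaling, and leaving out an array moved NOTCH3 between -0.23 and 0.15, JAG1 between -1.48 and 0.17, JAG2 between -0.21 and 1.35 and HES1 between -1.25 and 0.048. In SH-EP2 it moved NOTCH4 between -0.71 and 0.22 and HEY1 between -0.14 and 0.18. For the difference between the lines NOTCH2 turned to -0.061, -0.14 and -0.13 with neqc, normexp and no correction, HES1 to -0.042 and -0.065 with the last 2, and leaving out an array moved NOTCH4 between -0.16 and 0.78 and HES1 between -0.31 and 0.99. Between the control lines JAG2 was lost with variances estimated probe by probe (adjusted p = 0.109). The slide as a block was not run, since the files name no slide.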
